A study of Mus musculus with 6 samples.

Results

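The 7 genes described here, Sox10, Mbp, Cdh19, Kcna1, S100b, Gfra3 and Ngfr, are known markers of Schwann cells and peripheral nerve, and they were chosen by name from the 38293 genes of the count table. All 7 were found by their Ensembl identifiers, 7 of 7 had counts in every library, and 6 of 7 passed the filter on low counts that left 14746 genes for testing. RNA-seq was performed on heart tissue of adult male mice, 14 days after permanent occlusion of the LAD artery, in 3 WT and 3 Zeb2 cKO animals on a C57BL/6J (backcrossed) background. The WT animals are Zeb2 fl/fl in the methods, so they carry the floxed alleles as well. In Zeb2 cKO mice the floxed alleles are combined with a Cre recombinase driven by the Myh6 promoter, which is active in cardiomyocytes, and an effect of Cre itself cannot be told apart from the deletion. The labels place the tissue in the border region of the infarct, whereas the methods name the remote zone, and all cell types of the tissue contribute RNA to each library.

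Schwann cells are the glia of peripheral nerves. Some wrap single large axons in myelin, while others enclose bundles of thin axons without it, and in the heart most nerve fibres are of the thin autonomic kind. The transcription factor SOX10 maintains the identity of the lineage, from neural crest to mature glia. Mbp encodes a protein that compacts the myelin sheath, Cdh19 a cadherin of Schwann cell precursors and of non-myelinating glia, Kcna1 a voltage-gated potassium channel of axons and glia, and S100b a calcium-binding protein. Gfra3 encodes the receptor for the neurotrophic factor artemin, and Ngfr the low-affinity neurotrophin receptor p75. ZEB2 acts in Schwann cells too, where it is known to promote differentiation and myelination, but the promoter that drives Cre here is not known to be active in them.

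Promoter sequences were given in RefSeq for 2 of the 7 genes, S100b and Ngfr, and are shown because ZEB2 binds E-box letters (CACCTG) in DNA. The windows are the 250 bases before the start annotated in RefSeq (build GRCm38.p6). That of S100b is on the plus strand at chr10:76253586-76253835, and that of Ngfr on the minus strand at chr11:95587699-95587948. Gene positions given below are from Gencode, whose starts differ. The Gencode start of Ngfr, 95587735, lies inside its window, and that of S100b, 76253853, lies past its window. The sequences are written 5′ to 3′ with CG pairs in capitals:
S100b: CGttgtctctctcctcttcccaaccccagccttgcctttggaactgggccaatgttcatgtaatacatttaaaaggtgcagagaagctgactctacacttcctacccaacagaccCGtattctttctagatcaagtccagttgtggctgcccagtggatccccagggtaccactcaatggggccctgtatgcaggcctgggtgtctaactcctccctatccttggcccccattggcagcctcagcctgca
Ngfr: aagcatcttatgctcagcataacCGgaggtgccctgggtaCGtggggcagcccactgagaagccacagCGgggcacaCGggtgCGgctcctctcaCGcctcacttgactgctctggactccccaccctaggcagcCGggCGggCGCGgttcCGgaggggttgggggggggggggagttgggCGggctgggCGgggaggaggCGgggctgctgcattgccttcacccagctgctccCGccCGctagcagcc
The Ngfr window holds 16 CG pairs and the S100b window 2, where the median of all 32851 promoters is 6. Neither window holds CACCTG on either strand, letters that 17.2% of all promoters hold, nor ACAAAG, a SOX motif held by 16.5%.

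Counts outside the mitochondrially encoded genes were between 14301225 and 19024394 per library, and 1 count corresponded to between 0.0186 and 0.0265 CPM, the unit used throughout for a count scaled to its library by TMM normalization. Zeb2, the targeted gene, was at 61.3, 116.05 and 71.9 CPM in WT replicates 1, 2 and 3. In the same order, the Zeb2 cKO replicates had 59.6, 72.6 and 66.5 CPM, so that the genotypes overlapped in whole tissue. Its log2 fold change was -0.33 (standard error 0.25, edgeR quasi-likelihood test, adjusted p = 0.957) and -0.0058 without WT replicate 2. WT replicate 2 stood apart from the other 5 libraries. Its 8 fibroblast markers summed to 9621 CPM and its 8 macrophage markers to 808 CPM, whereas the other libraries lay between 1680 and 2327 CPM and between 210 and 288 CPM. Its 8 cardiomyocyte markers summed to 12240 CPM, against 20260 to 25530 CPM elsewhere. Log2 fold changes that move by over 1.5 times without this library are also given without it.

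The 7 genes together held between 249 and 459 counts per library, a low level in each heart. Of the other defining Schwann cell genes, Erbb3, the neuregulin receptor of the lineage, was at 11.1, 5.29 and 8.31 CPM in WT and at 12.6, 10.03 and 10.4 CPM in Zeb2 cKO libraries.

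Per length of annotated exon, Cdh19 was the most abundant of the 7 genes in 6 of 6 libraries, with 0.544 to 1.06 CPM per kilobase. Then followed S100b (0.161 to 0.568), Kcna1 (0.138 to 0.487), Gfra3 (0.0913 to 0.519), Mbp (0.102 to 0.439) and Ngfr (0.0696 to 0.216 CPM per kilobase). Sox10 was the least abundant in 5 of 6 libraries, with 0.0149 to 0.183 CPM per kilobase. From S100b down, the ranges of neighbours in this order overlapped widely, and only the first place of Cdh19 held within every library.

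**Figure D1:**
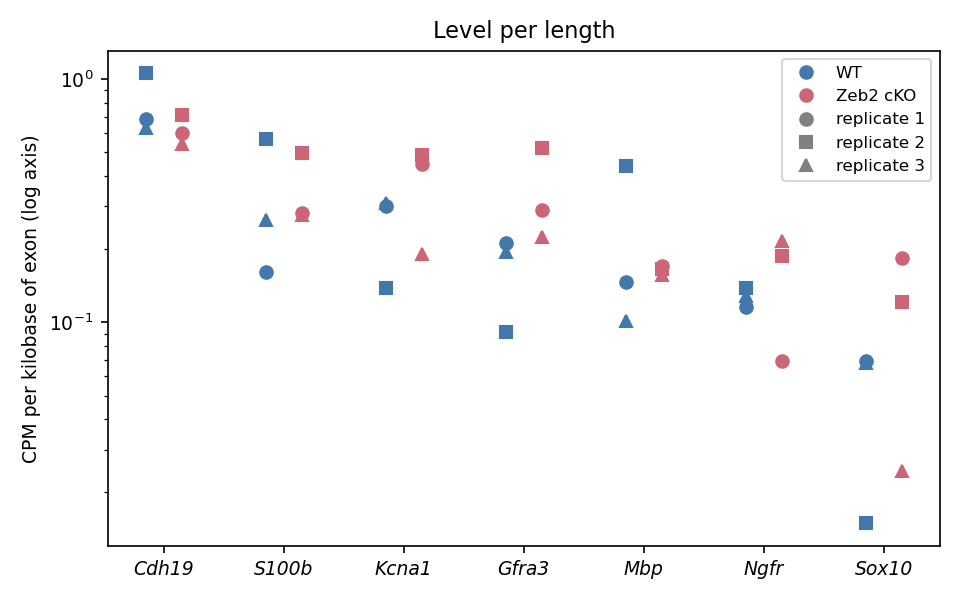
Level of the 7 genes per length, as CPM per kilobase of annotated exon on a log axis, with 1 point per library (blue WT, red Zeb2 cKO, marker shape for the replicate). Cdh19 lies highest in each library, between 0.544 and 1.06, and Sox10 reaches down to 0.0149 in WT replicate 2.

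Between Zeb2 cKO and WT hearts, none of the 6 tested genes passed an adjusted p of 0.05 in edgeR's quasi-likelihood test. Across the whole table the test called 0 of 14746 genes (0%), beside 280 genes with an unadjusted p under 0.05, and DESeq2 called 1. The log2 fold change (Zeb2 cKO over WT) was above 0 in Gfra3, Kcna1, Ngfr and S100b and below 0 in Cdh19 and Mbp, with a median of 0.18, where the median of all tested genes was -0.0069. An unadjusted p under 0.05 was reached by 0 of the 6, against a background of 0.861% of all tested genes lower and 1.04% higher in Zeb2 cKO hearts. All libraries of one genotype lay above those of the other in 1 of the 6, Gfra3, which was higher in Zeb2 cKO. Of all tested genes, 3.39% were higher and 2.97% lower without overlap. With 3 mice per group, an exact permutation test of a single gene cannot give a two-sided p under 0.1. In bulk tissue, fewer nerve cells and less RNA per cell cannot be told apart.

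**Figure D2:**
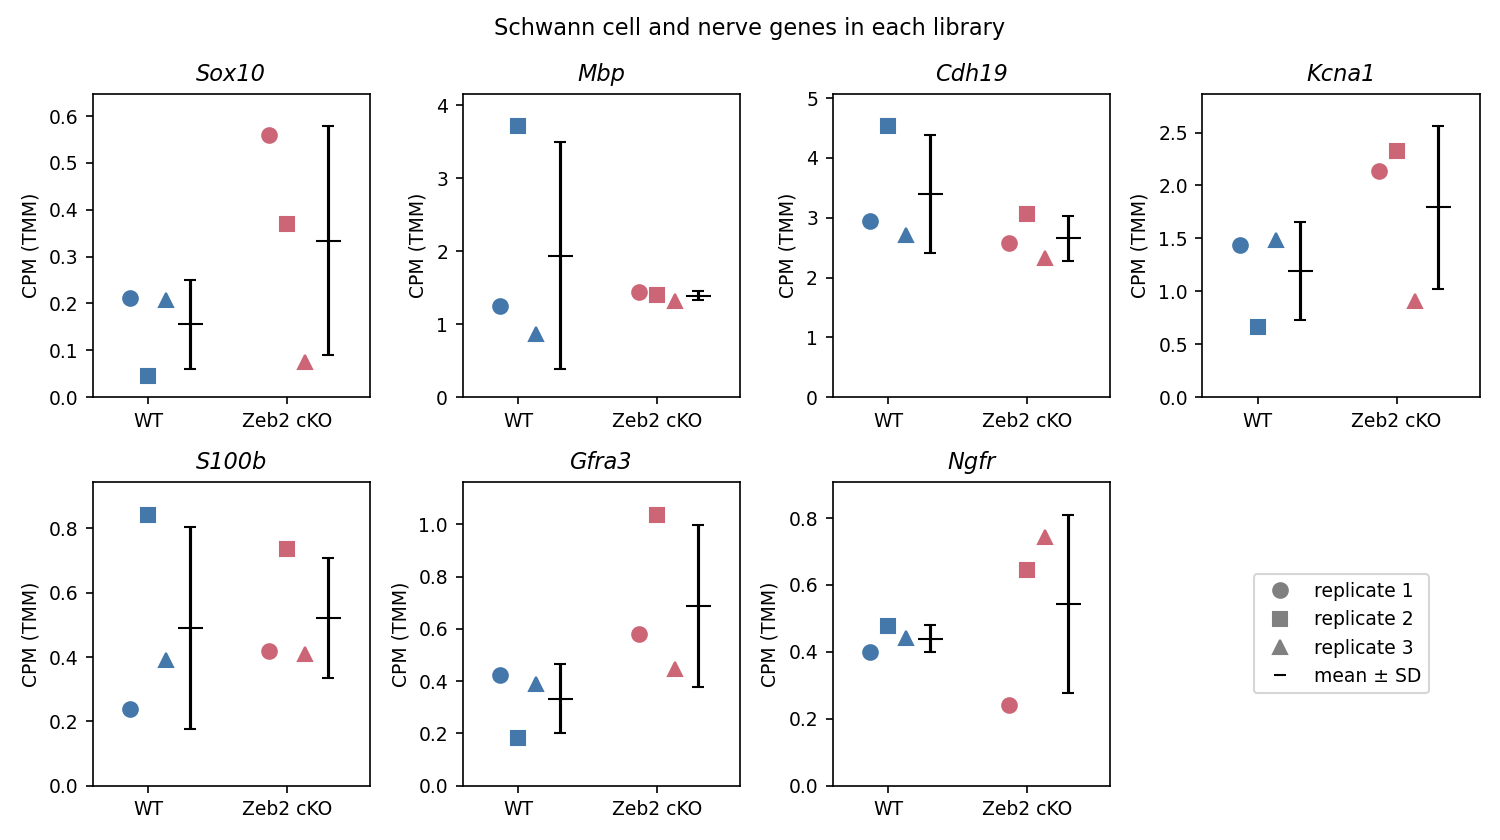
CPM of the 7 genes in each library (blue WT, red Zeb2 cKO, marker shape for the replicate), with the mean and SD of 3 libraries in black beside each group. Gfra3 is the gene whose groups do not overlap, and WT replicate 2 is the highest library for Mbp, Cdh19 and S100b and the lowest for Sox10, Kcna1 and Gfra3.

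Sox10 (ENSMUSG00000033006, chromosome 15 of GRCm38, 79154908 to 79165240, minus strand) had 8, 2 and 8 counts in the WT libraries, given here and below in the order of replicates 1, 2 and 3, and 28, 16 and 4 counts in those of Zeb2 cKO. These counts were too few for the filter. Zeb2 cKO replicates 1 and 2 lay above every WT library, and Zeb2 cKO replicate 3 lay below WT replicates 1 and 3. In a fit without the filter its log2 fold change was 1.13 (standard error 0.75, edgeR quasi-likelihood test, adjusted p = 0.858). It was 0.65 without WT replicate 2, 1.61 without Zeb2 cKO replicate 3 and 0.51 without Zeb2 cKO replicate 1. The mean was 0.155 ± 0.0952 CPM in WT and 0.334 ± 0.244 CPM in Zeb2 cKO (SD, n = 3 each), and counting alone gives a coefficient of variation of 40.8% in WT and 25% in Zeb2 cKO libraries.

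Mbp (ENSMUSG00000041607, chromosome 18, 82475146 to 82585637, plus strand) was at 1.25, 3.71 and 0.859 CPM in WT hearts, against 1.44, 1.41 and 1.32 CPM in Zeb2 cKO hearts. WT replicate 2 alone was high, with 163 counts, and the 3 Zeb2 cKO libraries were nearly level with each other. The group means were 1.94 ± 1.55 CPM in WT and 1.39 ± 0.0606 CPM in Zeb2 cKO (SD, n = 3 each). Its log2 fold change was -0.49 (standard error 0.52, 95% interval -1.72 to 0.74, edgeR quasi-likelihood test, adjusted p = 0.957). Without WT replicate 2 it turned to 0.40, with an unadjusted p of 0.141 in edgeR's test. The Mbp locus also encodes the golli proteins, which are made in immune cells, and counts per gene do not part the products. In the library with the high Mbp count the macrophage markers were highest as well, and their part in it was not tested.

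Cdh19 (ENSMUSG00000047216, chromosome 1, 110888326 to 110977584, minus strand), the best counted of the 7 genes with 414 counts in WT and 387 in Zeb2 cKO libraries, was at 2.95, 4.53 and 2.71 CPM in WT. In Zeb2 cKO hearts it was at 2.58, 3.07 and 2.33 CPM. The groups overlapped, since Zeb2 cKO replicate 2 exceeded WT replicates 1 and 3. A log2 fold change of -0.36 was obtained (standard error 0.24, 95% interval -0.93 to 0.22, edgeR quasi-likelihood test, adjusted p = 0.957). Without WT replicate 2 it was -0.090. The interval, the narrowest of the 6, excluded a rise of more than 0.22 and a fall of more than 0.93 on the log2 scale.

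Kcna1 (ENSMUSG00000047976, chromosome 6, 126640397 to 126646384, minus strand) was at 1.43, 0.661 and 1.48 CPM in WT hearts, against 2.14, 2.33 and 0.912 CPM in Zeb2 cKO hearts. Its order of libraries resembled that of Sox10, with Zeb2 cKO replicates 1 and 2 on top and with WT replicate 2 and Zeb2 cKO replicate 3 at the bottom. The means were 1.19 ± 0.462 and 1.79 ± 0.769 CPM (SD, n = 3 each). Its log2 fold change of 0.59 (standard error 0.45, 95% interval -0.47 to 1.65, edgeR quasi-likelihood test, adjusted p = 0.957) was 0.29 without WT replicate 2 and 0.91 without Zeb2 cKO replicate 3. Kcna2, the channel subunit that pairs with it along myelinated axons, was at 0.372, 0.387 and 0.469 CPM in WT and at 0.859, 0.922 and 0.335 CPM in Zeb2 cKO hearts, and Zeb2 cKO replicates 1 and 2 were again the highest libraries.

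S100b (ENSMUSG00000033208, chromosome 10, 76253853 to 76261159, plus strand) was at 0.239, 0.843 and 0.391 CPM in WT and at 0.420, 0.737 and 0.409 CPM in Zeb2 cKO libraries. The highest library was WT replicate 2 and the next Zeb2 cKO replicate 2, and the remaining 4 lay at 0.420 CPM or below. The log2 fold change was 0.064 (standard error 0.50, 95% interval -1.13 to 1.26, edgeR quasi-likelihood test, adjusted p = 0.991), and 0.71 without WT replicate 2. S100b is also expressed in adipocytes, and the adipocyte marker Adipoq, which encodes the hormone adiponectin, had 3, 2 and 5 counts in WT and 25, 8 and 9 counts in Zeb2 cKO libraries. Of the 8 adipocyte markers, 5 (Adipoq, Adig, Plin1, Cidec and Retn) were higher in every Zeb2 cKO library than in any WT library. Each had at most 25 counts in a library, and Retn had 2, 0 and 0 counts in WT against 3 in each Zeb2 cKO library. Of these 5, only Adig passed the filter on low counts. The 3.39% of tested genes that were higher without overlap is no background for the others, and no share was computed for untested genes. Adig had a log2 fold change of 1.83, with an unadjusted p of 0.00284 and an adjusted p = 0.957 in the edgeR test. The 8 together, dominated by Fabp4, which is also an endothelial gene, summed to between 125 and 178 CPM in WT and between 162 and 217 CPM in Zeb2 cKO libraries, and Lep had at most 1 count. The part of adipocytes in the S100b values was not tested.

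Gfra3 (ENSMUSG00000024366, chromosome 18, 34689898 to 34720387, minus strand) was the gene of the 7 with separate groups. It had 16, 8 and 15 counts in WT and 29, 45 and 24 counts in Zeb2 cKO hearts, which is 0.425, 0.182 and 0.391 CPM against 0.580, 1.04 and 0.447 CPM. The lowest Zeb2 cKO library, at 0.447 CPM, lay just above the highest WT library, at 0.425 CPM, and the distance between them was smaller than the SD of either group. The means were 0.333 ± 0.131 CPM in WT and 0.688 ± 0.310 CPM in Zeb2 cKO (SD, n = 3 each, exact permutation test, two-sided p = 0.1, the smallest possible). Its log2 fold change was 1.04 (standard error 0.46, 95% interval -0.039 to 2.13), with an unadjusted p of 0.0567 and an adjusted p = 0.957 in the edgeR quasi-likelihood test, and it was higher in 3 of 3 Zeb2 cKO libraries. It stayed above 0 with each library left out in turn, between 0.63 without Zeb2 cKO replicate 2 and 1.28 without Zeb2 cKO replicate 3, and was 0.74 without WT replicate 2. Artn, the gene of its ligand artemin, had between 0 and 5 counts per library. Ret, the signalling receptor that GFRA proteins engage, was at 3.16, 2.73 and 4.24 CPM in WT. In Zeb2 cKO libraries it was at 4.42, 4.03 and 3.80 CPM, and the groups overlapped. Its log2 fold change was 0.27, between 0.14 without WT replicate 2 and 0.47 without WT replicate 3.

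Ngfr (ENSMUSG00000000120, chromosome 11, 95568818 to 95587735, minus strand), whose CG-rich promoter is shown above, was at 0.398, 0.479 and 0.443 CPM in WT. In Zeb2 cKO libraries it was at 0.240, 0.645 and 0.744 CPM. The Zeb2 cKO libraries thus lay on either side of the WT libraries, which varied less among themselves (9.14%) than counting alone gives (23.8%). Its log2 fold change was 0.30 (standard error 0.43, 95% interval -0.73 to 1.33, edgeR quasi-likelihood test, adjusted p = 0.957), and it was -0.0064 without Zeb2 cKO replicate 3. Ngfr is also made by fibroblasts and vascular mural cells, and it was the gene of the 7 in which WT replicate 2 came closest to the mean of the 6 libraries.

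**Figure D3:**
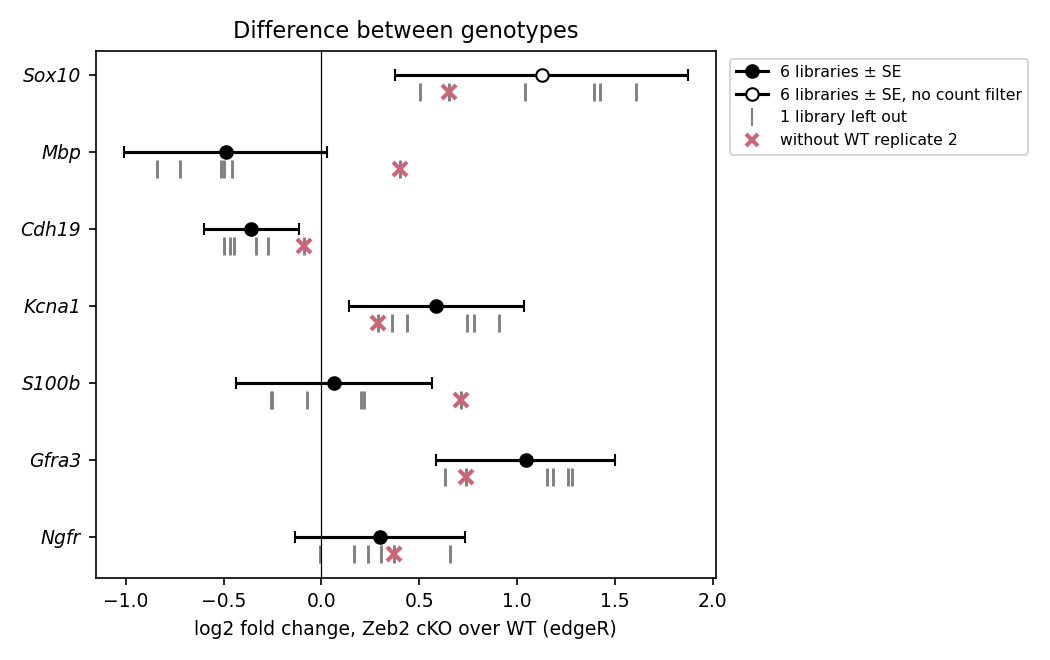
Log2 fold change of the 7 genes between Zeb2 cKO and WT hearts with its standard error (circles, open for Sox10, which was fitted without the count filter), above the values with 1 library left out (grey ticks, a red cross without WT replicate 2). Mbp moves from -0.49 to 0.40 without that library, and Gfra3 lies at 0.63 or higher in all its leave-one-out fits.

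The 7 genes did not move as 1 group over the hearts. WT replicate 2 was the highest library for 3 of them (Mbp, Cdh19 and S100b) and the lowest for 3 others (Sox10, Kcna1 and Gfra3). The difference between 2 genes was measured as the root mean square of their log2 CPM, each centred on its mean over the 6 libraries. By this measure the most alike were Kcna1 and Gfra3 (0.33), then Sox10 and Kcna1 (0.39), Mbp and Cdh19 (0.41), Cdh19 and S100b (0.42) and Mbp and S100b (0.48). The least alike were Mbp and Sox10 (1.39). In Mbp, Cdh19 and S100b, the highest library was the one in which fibroblast and macrophage markers were highest, and the part of those cells in these counts was not tested. With few counts per gene, and with 6 libraries of which 1 stands apart, these likenesses are a description only.

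**Figure D4:**
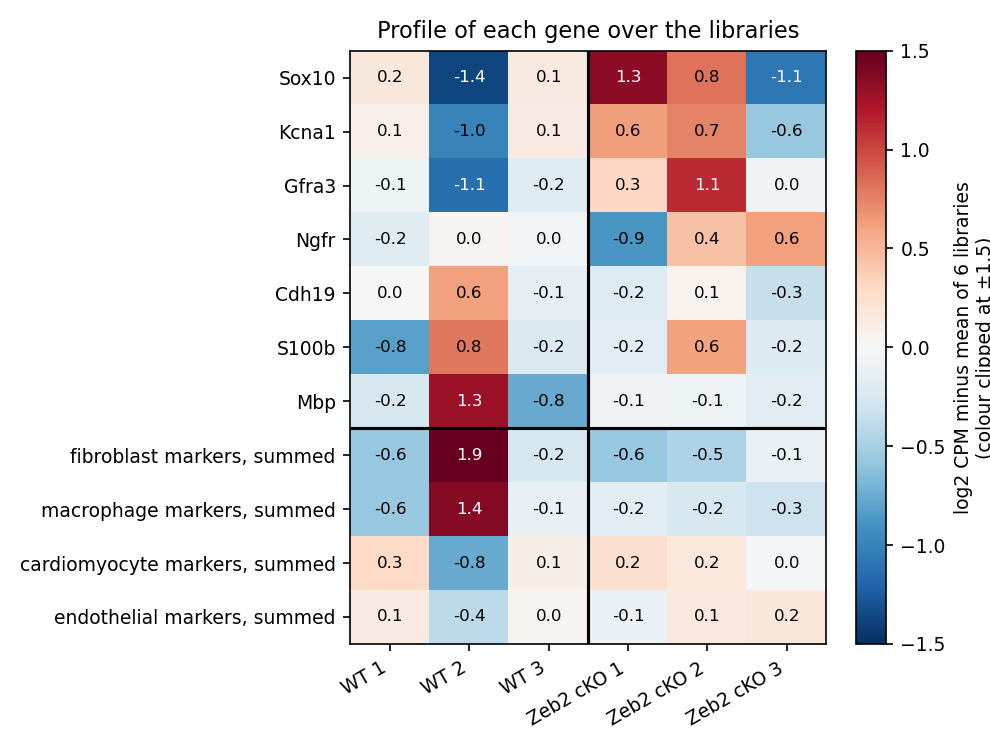
Log2 CPM of the 7 genes and of the summed markers of 4 other cell types, each minus its mean over the 6 libraries (red above, blue below, columns are libraries, colours clipped at 1.5 on either side). Sox10, Kcna1 and Gfra3 are low in WT replicate 2 (-1.38, -0.999 and -1.13), whereas Mbp is high there (1.29) together with fibroblast and macrophage markers.

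Averaged over the 7 genes, the centred log2 CPM was -0.15, -0.11 and -0.15 in WT hearts, against 0.14, 0.53 and -0.26 in Zeb2 cKO hearts. Zeb2 cKO replicate 2 was the highest and Zeb2 cKO replicate 3 the lowest library, so the spread within Zeb2 cKO hearts was larger than the difference between the groups. Among the other tested genes, the profiles closest to this average were those of Map2k6, a kinase of the p38 pathway (root mean square difference 0.046), D130007C19Rik (0.072), Gm13510 (0.073), Angpt1, which encodes the vascular growth factor angiopoietin 1 (0.074), and Mettl17 (0.095), where the median of all tested genes was 0.35. D130007C19Rik shares 46.2% of its longest transcript with other genes at an identity of at least 95%, so its count is uncertain.

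A list of 34 other Schwann cell and myelin genes was examined in the same fit. Of these, 19 passed the filter on low counts, 10 with a log2 fold change below 0 and 9 above (median -0.038), and 0 had an adjusted p under 0.05. Mal, which encodes a proteolipid of myelin and of epithelia, was at 10.9, 7.27 and 13.2 CPM in WT and at 21.2, 15.4 and 15.6 CPM in Zeb2 cKO hearts. It was the single tested gene of the list whose libraries did not overlap, where 3.39% of all tested genes were higher without overlap. It was also the only one whose unadjusted p, 0.019, was under 0.05 (log2 fold change 0.74, standard error 0.24, adjusted p = 0.957 by edgeR). Ncam1, an adhesion molecule of nerve and of injured muscle, had a log2 fold change of -1.14 that was -0.15 without WT replicate 2, where it stood at 15.0 CPM against 2.94 to 4.19 CPM in the others. The genes with the highest CPM of this list, not divided by length, Art3, Scn7a and Pmp22, are not restricted to glia. Scn7a and Pmp22 peaked in WT replicate 2 at 94.7 and 74.3 CPM, and Art3 had its lowest value there, 40.7 CPM. For myelin itself, the list held few counts. Pmp2, Gjb1 and Ugt8a had 3 or fewer counts over all libraries, as did Sox2 and Gldn.

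Among 16 genes of the neurotrophin and GDNF families, 11 passed the filter, 4 below and 7 above 0 (median log2 fold change 0.25), and 0 had an adjusted p under 0.05. Ntf3, which encodes neurotrophin 3, a ligand of p75 and of TrkC, was at 1.27, 1.09 and 1.35 CPM in WT and at 2.02, 1.91 and 1.66 CPM in Zeb2 cKO hearts. Each Zeb2 cKO library exceeded every WT library, and the log2 fold change was 0.59 (standard error 0.19, unadjusted p = 0.0192, adjusted p = 0.957 by edgeR), or 0.50 without WT replicate 2. Ntrk3, the gene of its receptor TrkC, was at 0.239, 0.296 and 0.339 CPM in WT. In Zeb2 cKO libraries it was at 0.420, 0.392 and 0.465 CPM, again without overlap (log2 fold change 0.54, standard error 0.28, adjusted p = 0.957 by edgeR). Ntf3 and Ntrk3 were 2 of the 11 tested genes of the list, where 3.39% of all tested genes were higher without overlap. Of the other ligands, Bdnf had a log2 fold change of -0.29, which was -0.068 without WT replicate 2. Nrtn, which encodes neurturin, a factor for parasympathetic neurons, had 33, 6 and 25 counts in WT and 7, 15 and 17 counts in Zeb2 cKO libraries. The groups overlapped, and its log2 fold change of -1.04 (standard error 0.67) was between -0.54 without WT replicate 1 and -1.51 without WT replicate 2. Sort1, which encodes the p75 co-receptor sortilin, was at 15.5 to 27.4 CPM in WT and 20.2 to 35.0 CPM in Zeb2 cKO hearts.

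Few neuron and axon genes had enough counts to be tested. Of 31 listed, 30 were found in the table and 10 passed the filter (5 below and 5 above 0, median log2 fold change 0.13), with 0 below an unadjusted p of 0.05. Th, the first enzyme of noradrenaline synthesis, had 0 counts in 5 libraries and 1 in the other, and Chat, which makes acetylcholine, had 0 in all 6. Dbh, the last enzyme of noradrenaline synthesis, was at 1.83, 1.53 and 1.61 CPM in WT and at 2.60, 2.77 and 0.856 CPM in Zeb2 cKO hearts, so that Zeb2 cKO replicates 1 and 2 were highest and replicate 3 was lowest. Stmn2, a microtubule regulator of growing axons, was at 1.33, 1.44 and 1.43 CPM in WT and at 1.92, 2.01 and 1.30 CPM in Zeb2 cKO libraries, with the same libraries at the ends of the order. For Syp, a synaptic vesicle protein, the log2 fold change was 0.39 with a standard error of 0.26. For Ache, which breaks down acetylcholine, it was 0.72 (standard error 0.45), between 0.44 without WT replicate 3 and 1.27 without WT replicate 1. For Uchl1, a neuronal ubiquitin hydrolase, it was -0.36, between -0.0044 without Zeb2 cKO replicate 1 and -0.89 without Zeb2 cKO replicate 3. For Ddc, the enzyme between TH and DBH, it was -0.046, and -0.33 without WT replicate 2. In each of these 6 genes the groups overlapped.

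The regulators of Schwann cell differentiation beside ZEB2 are expressed in many cell types. Of 12 listed, with Zeb2 itself, 11 were tested, 10 below and 1 above 0 (median log2 fold change -0.078). Smad7, an inhibitor of TGF-beta signalling, was at 10.5, 10.5 and 10.9 CPM in WT hearts. It was at 8.55, 8.37 and 9.86 CPM in Zeb2 cKO hearts. Its groups did not overlap (log2 fold change -0.26, standard error 0.12, adjusted p = 0.957 by edgeR). Neither did those of the Hippo pathway effector Yap1 (-0.19, standard error 0.11). These were 2 of the 11 tested genes of the list, where 2.97% of all tested genes were lower without overlap. Id2, which holds back differentiation, had a log2 fold change of -1.28 that became 0.43 without WT replicate 2, in which it stood at 33.0 CPM against 3.48 to 6.27 CPM elsewhere. Wwtr1 and Tead1, partners in the Hippo pathway, had log2 fold changes of -0.22 and -0.020, and of -0.075 and -0.16 without WT replicate 2.

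**Figure D5:**
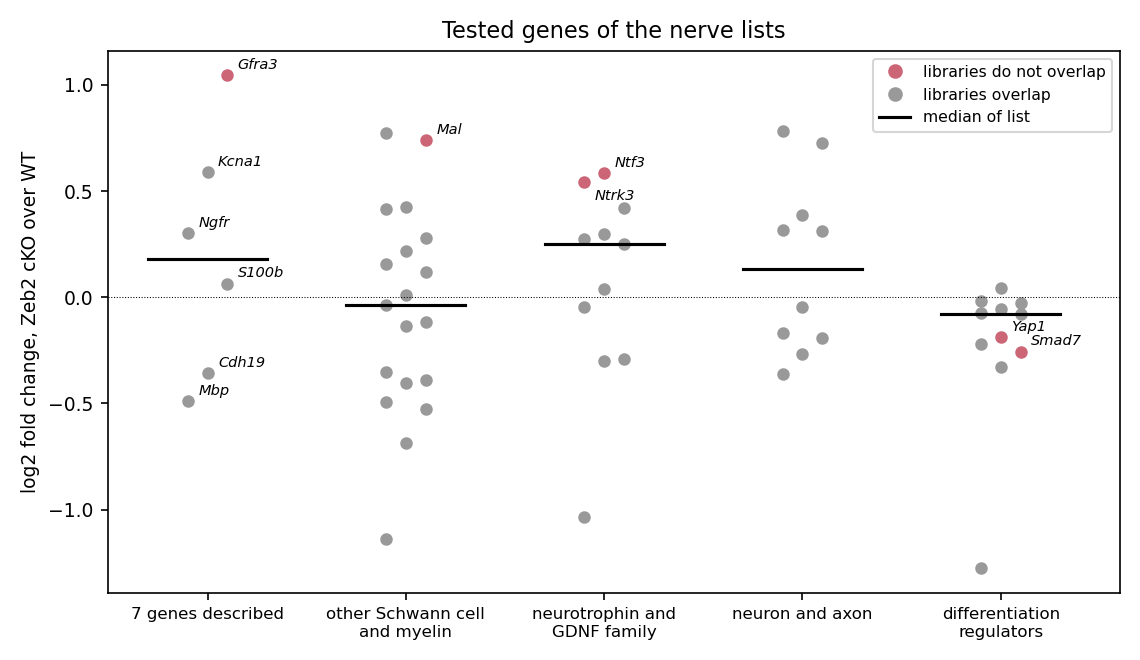
Log2 fold change between Zeb2 cKO and WT hearts of each tested gene in the 7 genes described and in the 4 nerve lists, with the median of each list as a line and genes whose libraries do not overlap in red. Named red points are Gfra3 (1.04), Mal (0.74), Ntf3 (0.59) and Ntrk3 (0.54) above 0, and Yap1 (-0.19) and Smad7 (-0.26) below it. Of all tested genes, 3.39% are higher and 2.97% lower without overlap.

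Other cell types that can carry these genes were measured by their markers. Melanocytes share Sox10 with Schwann cells, and of 7 melanocyte markers Pmel, Tyr, Mlana and Tyrp1 had at most 5 counts in any library. Dct, a pigment enzyme, had 45, 48 and 70 counts in WT and 79, 53 and 41 counts in Zeb2 cKO libraries, whereas Mitf and Kit, which heart cells also express, made up most of the sum of 34.2 to 56.2 CPM. Atrial tissue is rich in nerve. The 6 atrial markers, led by Nppa, which stressed ventricle also makes, summed to between 318.5 and 729.9 CPM in WT and between 154 and 199 CPM in Zeb2 cKO hearts. Their members Myl7 and Sln had 315 and 76 counts in Zeb2 cKO replicate 2, the library with the most Gfra3 and Kcna1, against 5 to 66 and 1 to 15 counts in the others. Bmp10, the most restricted of the atrial markers, had 0 counts in all 6 libraries. The part of atrial tissue in the values of that library was not tested. Endothelial markers summed to between 428 and 609 CPM in WT and between 528.5 and 629 CPM in Zeb2 cKO hearts, and mural cell markers to between 683 and 1021 CPM and between 935 and 1034 CPM. Mesothelial markers summed to between 4.71 and 10.6 CPM in WT and between 6.96 and 9.86 CPM in Zeb2 cKO hearts.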

How the data were processed

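Total RNA from the hearts of 3 WT and 3 Zeb2 cKO mice was analysed. The deposited values are whole-number counts for each gene, without normalization, which the authors obtained from stranded single-end reads of 75 bases with the STAR workflow on Gencode M4 (GRCm38). STAR's version and strand setting are not given in the sources used here. Every column was matched to 1 sample by the label's description, and 0 were left over.

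From these counts, genes were kept by filterByExpr, normalized with TMM and tested over the whole table with glmQLFit and glmQLFTest in edgeR 4.0.16 (R 4.3.3, prior count 0.125), with genotype as the factor and Benjamini-Hochberg adjustment. The methods name DESeq, which was not used here, and DESeq2 1.42.0 was the alternative test. Profiles used log2 CPM with a prior count of 2. Symbols, positions and exon lengths came from Gencode M21 on GRCm38. Shared stretches (75 bases or more, identity of at least 95%) were searched with BLAST 2.17.0, and make up 2.06% of the longest transcript of Mbp, 2.55% of Ngfr and 0% of the other 5 genes. No exon of the 7 genes overlaps an exon of another gene. The steps were tested on simulated data.

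The 7 genes and all lists were chosen with earlier results of these data known. Named were the 7 genes, Zeb2, the 3 genes of highest CPM and the 3 of lowest p of each nerve list, and the 5 closest profiles, except that 1 gene of the neurotrophin and GDNF families is not reported here. Erbb3, Bdnf, Artn, Th, Chat and the single markers of other cell types were named for their role after their values were seen. Any 2 libraries differed by more than counting noise. Same-numbered libraries come from different mice and were not paired.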

Additional observations from a re-analysis of the deposited data

How the results depend on the processing

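Under DESeq2's Wald test 1 gene of the table passed an adjusted p of 0.05, against 0 in edgeR (429 and 280 genes at an unadjusted p under 0.05), and it was none of the 7. The median over those of the 7 genes that were tested, 0.18 over 6 genes, kept within the spread between libraries under every alternative, and lay between -0.043 without Zeb2 cKO replicate 2 (6 genes) and 0.40 without WT replicate 2 (7 genes, as Sox10 then passed the filter). Gfra3, Kcna1, Sox10 and Cdh19 kept their direction in all alternatives run. Without a filter on low counts Gfra3 had an unadjusted p of 0.0413 in edgeR's test (adjusted p = 0.858). Without Zeb2 cKO replicate 3 it was 0.0386 (adjusted p = 0.915), where that of Sox10 was 0.0307 (adjusted p = 0.856). These were the lowest values among the alternatives. The unadjusted p rose to 0.209 for Gfra3 without Zeb2 cKO replicate 2 and to 0.559 for Sox10 without Zeb2 cKO replicate 1. With the replicate block, in a fit that treats equal numbers as pairs, 0 genes were called and the median of the tested genes was 0.19. Same-numbered libraries did not deviate together (r of 0.089, -0.13 and -0.086 across genes). Differently numbered libraries had r between -0.26 and 0.24. These values gave no sign of pairs, but they are too few to exclude them.

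With 1 library left out in turn, log2 fold changes changed sign in these genes. Mbp ran from -0.84 to 0.40, S100b from -0.26 to 0.71 and Ngfr from -0.0064 to 0.66. Of the listed genes, Pmp22 ran from -0.79 to 0.073, Scn7a from -0.66 to 0.21, Art3 from -0.036 to 0.41, Sort1 from -0.028 to 0.45, Ddc from -0.34 to 0.20, Tead1 from -0.16 to 0.15 and Id2 from -1.73 to 0.43. The cause was not tested. At 2 to 199 counts per gene and library, differences within the intervals given were not excluded.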
